A study of Mus musculus with 6 samples.

Results

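Histone lysine methyltransferases (writers) and demethylases (erasers) were followed in the whole brain of mouse embryos at E15.5 (E, embryonic day), a stage of active neurogenesis. A list of 40 autosomal genes, 26 writers and 14 erasers, was matched by symbol to the RefSeq transcript IDs of the count tables. Of these genes, 35 had at least 1 of the 23485 IDs, with 43 IDs in all, and Ehmt1, Ehmt2, Setdb1, Setdb2 and Kdm4c were not analysed here. A test of sex was run where any sample held 10 or more counts of an ID, which kept 13374 IDs and, among them, 33 IDs of 29 listed genes (19 IDs of 17 writers and 14 IDs of 12 erasers). The other 10 IDs did not reach that count. They left Kmt2a, Kmt2b, Ezh2, Suv39h2, Kmt5a and Kdm4b with no tested ID.

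All embryos were wild-type C57BL/6 animals, and no transgene, deletion or treatment is named for either group. The 3 female and 3 male samples were each RNA pooled from several embryos whose sex was read from the gonads, so each value is an average over a pool. Replicates were separate pools, and a p-value measures the spread between pools. In RNA of a whole organ, fewer cells of a type and less RNA per cell cannot be told apart.

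Methyl groups on histone lysines are added by SET-domain enzymes and by Dot1l, the writer of histone H3 lysine 79 (H3K79), and are removed by the flavin-dependent Kdm1 enzymes and by the larger family of Jumonji enzymes. Methylation of H3K4 is found at active promoters and enhancers, that of H3K36 and H3K79 along transcribed genes, and that of H3K9 and H3K27 in silenced chromatin, while H4K20 methylation is tied to chromatin compaction and replication. Mutations in many of these genes, Kmt2d, Nsd1, Ash1l and Kdm6b among them, cause disorders of human brain development or growth.

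The promoters of 4 members are shown because their genes span the results: Setd1a, Kmt2d and Dot1l are writers at an unadjusted p under 0.05, and Kdm5b is the eraser with the smallest fold change. Each is 300 bases of RefSeq sequence (GRCm38.p6), 250 before and 50 after the start of the gene, read 5′ to 3′ on the strand of the gene. Capitals mark GGGCGG or its reverse complement CCGCCC, the core of the GC box.
Setd1a (chr7:127777139-127777438, plus strand): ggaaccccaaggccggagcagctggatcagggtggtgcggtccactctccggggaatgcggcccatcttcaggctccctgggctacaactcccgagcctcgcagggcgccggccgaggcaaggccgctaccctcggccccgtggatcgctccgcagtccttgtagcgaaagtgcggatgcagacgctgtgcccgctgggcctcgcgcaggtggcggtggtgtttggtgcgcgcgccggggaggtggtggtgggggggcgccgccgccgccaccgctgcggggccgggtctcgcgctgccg
Kmt2d (chr15:98871156-98871455, minus strand): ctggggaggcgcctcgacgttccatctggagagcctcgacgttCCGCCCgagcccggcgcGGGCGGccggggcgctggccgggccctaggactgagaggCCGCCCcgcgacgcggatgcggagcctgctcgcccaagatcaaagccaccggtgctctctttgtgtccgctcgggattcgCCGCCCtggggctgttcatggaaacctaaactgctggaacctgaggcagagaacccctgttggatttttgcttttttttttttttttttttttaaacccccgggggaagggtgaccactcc
Dot1l (chr10:80754953-80755252, plus strand): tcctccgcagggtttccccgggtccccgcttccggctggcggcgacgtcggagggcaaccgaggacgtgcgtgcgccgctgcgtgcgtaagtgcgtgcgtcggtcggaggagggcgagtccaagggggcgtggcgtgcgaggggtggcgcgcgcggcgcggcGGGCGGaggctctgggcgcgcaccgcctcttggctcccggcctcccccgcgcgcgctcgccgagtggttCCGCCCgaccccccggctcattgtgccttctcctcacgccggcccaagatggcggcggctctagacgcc
Kdm5b (chr1:134559928-134560227, plus strand): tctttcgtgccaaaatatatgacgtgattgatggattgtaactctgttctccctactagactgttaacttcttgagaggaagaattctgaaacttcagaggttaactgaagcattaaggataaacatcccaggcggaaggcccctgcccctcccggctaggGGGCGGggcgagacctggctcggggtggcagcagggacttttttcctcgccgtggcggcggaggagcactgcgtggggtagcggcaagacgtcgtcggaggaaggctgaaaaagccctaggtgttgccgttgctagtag
The GC box was found 4 times in the Kmt2d promoter, 2 times in that of Dot1l, 1 time in that of Kdm5b and not at all in that of Setd1a. CpG pairs, the sites of DNA methylation, numbered 49 in Dot1l, 35 in Setd1a, 27 in Kmt2d and 17 in Kdm5b.

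Promoters of the family as a whole were rich in CpG. Promoter entries were found for 27 of the 40 genes, 38 promoters in all, and these held a median of 28 CpG pairs, against 7 in all 32851 promoters of the same length. On either strand, GGGCGG was present in 65.8% of the member promoters and 35.7% of all promoters. CGGAAG, the core bound by ETS factors, was present in 28.9% and 16.9%, and CCAAT, the core of the CCAAT box, in 31.6% and 37.4%. No motif contains another, though GGGCGG and CGGAAG can overlap in their CGG. GGGCGG and CGGAAG each hold a CpG pair and CCAAT holds none, so their shares are not independent of the CpG numbers. A match of letters is a description and not a site of binding.

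Totals of the 6 samples ranged from 4908565 to 10294443 counts, so that a count of 0 allows up to 3 counts, or 0.291 to 0.611 CPM (counts scaled to a common library total) before normalisation, for counting error only. No sample was a copy of another. Markers of neural progenitors (7 of 8 listed) summed to 2526 to 2858 CPM in females and 2591 to 2953 CPM in males. Markers of neurons (8 of 8 listed) summed to 3026 to 3563 CPM in females and 3389 to 4286 CPM in males, which overlapped. One progenitor marker, Eomes, was at or under 3 counts in every sample, and the neuronal markers Snap25 (0.207 to 1.94 CPM) and Dcx (2.75 to 5.19 CPM) had low values. Markers of skeletal muscle were also present, with 5 of 6 listed and sums of 2728 to 3132 CPM in females and 2291 to 2819 CPM in males. Epidermal markers (4 of 5 listed) summed to 1338 to 1493 CPM in females and 1149 to 1889 CPM in males, and cartilage markers (5 of 5 listed, Acan at or under 3 counts) to 800 to 1161 CPM and 527 to 1018 CPM. Endothelial markers (3 of 5 listed) were at 553 to 587 CPM in females and 465 to 542 CPM in males, without overlap in the sum. Among them Cdh5 and Kdr were lower in males, while Cldn5 was at 41.9 to 59.7 CPM in females and 56.9 to 73.9 CPM in males. Erythroid markers (3 of 5) spanned 629 to 800 CPM and 544 to 985 CPM, and microglial markers (3 of 5) 121 to 168 CPM and 145 to 168 CPM. The part of these cell types in the values below was not tested.

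Levels of the members were compared between genes per kilobase of annotated transcript (longest GENCODE transcript of the gene) and scaled to the same sum in each sample. The order follows the mean over all 6 samples, 288 for Kdm5b and 278 for Nsd1. Most genes with 2 or more RefSeq mRNAs had few counts or no ID (described below), which limits this order. It was led by Kdm5b, a demethylase of H3K4, at 299.96 ± 17.8 in females and 276 ± 10.8 in males (SD, n = 3 each). Nsd1, which methylates H3K36, had 314 ± 23.5 in females and 242 ± 31.3 in males, so that Kdm5b and Nsd1 did not differ beyond their spread in females. Setd2, the enzyme for trimethylation of H3K36, followed with 239 ± 10.6 and 185 ± 36.2.

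Next in the order of levels per kilobase were Kmt2e (208 ± 29.0 in females and 130 ± 26.2 in males), the H3K36 demethylase Kdm2a (162 ± 12.3 and 131 ± 13.1) and Ash1l (155 ± 23.1 and 105 ± 21.9). Neighbours in this stretch overlapped within 1 SD in males. Enhancer H3K4 enzymes Kmt2c (137 ± 18.9 and 102 ± 30.7) and Kmt2d (105 ± 25.9 and 67.6 ± 22.3) stood above the promoter enzymes Setd1a (66.3 ± 10.5 and 45.6 ± 3.70) and Setd1b (60.5 ± 19.5 and 32.6 ± 9.70), although the ranges of 1 SD around the means of Kmt2d and Setd1a met in males and those of Kmt2d and Setd1b met in females. Setd1a and Setd1b did not differ beyond their spread in females.

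At the foot of the order, per kilobase, were Kmt2a, Kmt2b and Ezh2. Kmt2a, a trithorax-type H3K4 enzyme, had 1 count in female sample 1 and 0 in the other 5 samples. Kmt2b, its close relative, had 2 counts in female sample 1, 1 count in male sample 1 and 0 elsewhere. Ezh2, the main catalytic subunit of Polycomb repressive complex 2 (PRC2) in dividing cells, had 1 count in female sample 3, 2 in male sample 2, 1 in male sample 3 and 0 in the rest. All values of these 3 genes were at or under 3 counts, which gives no level and no order among them.

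These near-empty entries stood beside a property of the gene models. Of the 40 members, 20 have 1 mRNA in the RefSeq gene table and all 20 of them were listed, with a median of 11012.5 counts over the 6 samples; 18 had 1000 counts or more, and the exceptions were Kmt2a and Suv39h2. The other 20 members have 2 or more mRNAs. Only 15 of those were listed, with a median of 106 counts, and 4 of them reached 1000 counts: Nsd2, Nsd3, Prdm2 and Kdm4a. All 5 members with no ID were among those with 2 or more mRNAs.

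The same contrast was seen over the whole table, where 11653 genes with 1 mRNA had a median of 699 counts and 5754 genes with 2 or more a median of 31. How reads that fall on several transcripts of a gene were assigned is not stated, and its part in the low values was not tested. Counts near 0 in Ezh2, Setd5, Kdm1a, Kdm3a, Kmt2b, Kdm4b, Kmt5a, Kmt5b and Kmt5c, all genes of 2 or more mRNAs, were not read as a measure of expression. Those of Kmt2a and Suv39h2, with 1 mRNA, were not either. The gene table is of a later build than the counts, so the number of models in the authors' annotation can differ.

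**Figure D1:**
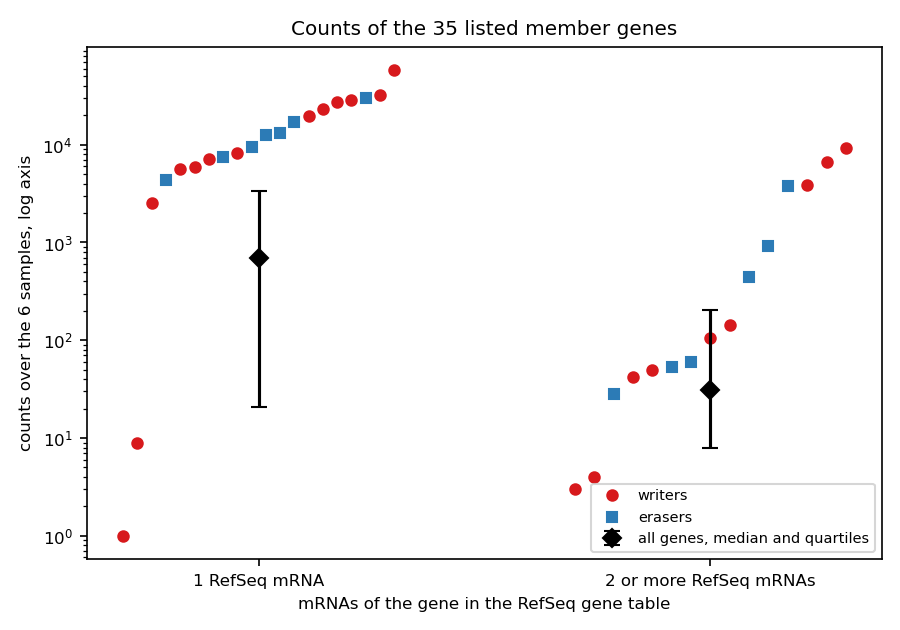
Counts summed over the 6 samples (log axis) for the 35 listed members, split by the number of RefSeq mRNAs of the gene, with writers as circles and erasers as squares. The diamond is the median of all genes (699 with 1 mRNA, 31 with 2 or more) and its bar runs between the quartiles. All but 2 of the 20 members with 1 mRNA lie at 1000 counts or above, and 11 of the 15 listed members with more lie below.

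The central comparison was male against female, with edgeR's quasi-likelihood F test adjusted over all 13374 IDs. No member ID passed an adjusted p of 0.05, where 0.0299% of all tested IDs did. At an unadjusted p under 0.05 there were 11 member IDs with a lower value in males, where 4.82% of all tested IDs were, and 0 with a higher value, where 6.68% were. All female samples lay above all male samples in 13 of the 33 IDs, against 8.35% of all tested IDs, and the opposite was seen in 0, against 8.70%. This measure was chosen after seeing the data, and the members were chosen with earlier results of these data known. The fitted value was lower in males for 26 of 33 IDs, compared with 51.0% of all tested IDs. DESeq2 called 2 of the members, Kmt2e (adjusted p 0.0192) and Setd1b (adjusted p 0.0486), where 1.91% of the IDs it adjusted were called. It gave an adjusted p to 23 of the 33 member IDs, and Nsd3 NM_001308482 (unadjusted DESeq2 p 0.000261) was among the 10 without one. Without the filter on low counts edgeR called 4 (Kmt2d, Kmt2e, Setd1b and Nsd3 NM_001308482), where 1.18% of all IDs were called. A fit with 1 RUVr factor, a term for unwanted variation drawn from the residuals, had 15 at an unadjusted p under 0.05 with a lower value in males, where 9.19% of all IDs were.

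The counts at an unadjusted p depended on single samples. They were 3 of 33 without female sample 1, where 2.29% of all tested IDs were lower in males at that p, and 5 without male sample 2, where 2.91% were. With any 1 of the other samples left out they were 9 to 13, against 2.49% to 6.26%. Nsd3 NM_001308482, Kmt2e and Ash1l were the 3 at an unadjusted p under 0.05 in each of these fits, and Setd1a and Setd1b were the other two that stayed there without male sample 2. The median log2 fold change (male over female) of the members was -0.22, and it lay between -0.31 and -0.16 when samples were left out in turn, where the median of all tested IDs was -0.01 with all samples.

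Writers and erasers were then set side by side. The 19 writer IDs had a median log2 fold change of -0.33. Of these, 9 had a lower value in males at an unadjusted p under 0.05 (4.82% of all tested IDs), 17 had a lower fitted value in males (51.0% of all) and 9 had female samples all above male samples (8.35% of all). Over the 14 eraser IDs the median was -0.05, with 2 at an unadjusted p under 0.05, 9 lower in males and 4 with all female samples above. With samples left out in turn, 3 (without female sample 1) to 12 writer IDs and 0 (without female sample 1 or male sample 2) to 3 eraser IDs had a lower value in males at that p. Over these fits, 2.29% (without female sample 1) to 6.26% (without male sample 3) of all tested IDs did. The eraser median then lay between -0.14 and 0.01, and it was -0.19 with 10 counts required in every sample. Among IDs with a mean of 50 or more counts, 15 of 16 writer IDs and 7 of 9 eraser IDs had a lower fitted value in males, against 44.8% of all 8358 such IDs. No test of the difference between the lists was made.

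Summed over their IDs, writers gave 6435, 5608 and 5331 CPM in females (samples 1, 2 and 3) and 3989, 4374 and 5114 CPM in males. The mean was 5791 ± 574 CPM in females and 4492 ± 572 CPM in males (SD, n = 3 each), and the sexes did not overlap, although female sample 3 and male sample 3 were close. Erasers gave 2314, 2124 and 2165 CPM in females and 1991, 2028 and 2066 CPM in males. Their means of 2201 ± 99.9 CPM and 2028 ± 37.2 CPM lay nearer to each other than those of the writers, again without overlap. The ratio of writers to erasers was 2.78, 2.64 and 2.46 in females and 2.00, 2.16 and 2.48 in males. Here male sample 3 reached the lowest female ratio, so the ratio overlapped between the sexes.

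**Figure D2:**
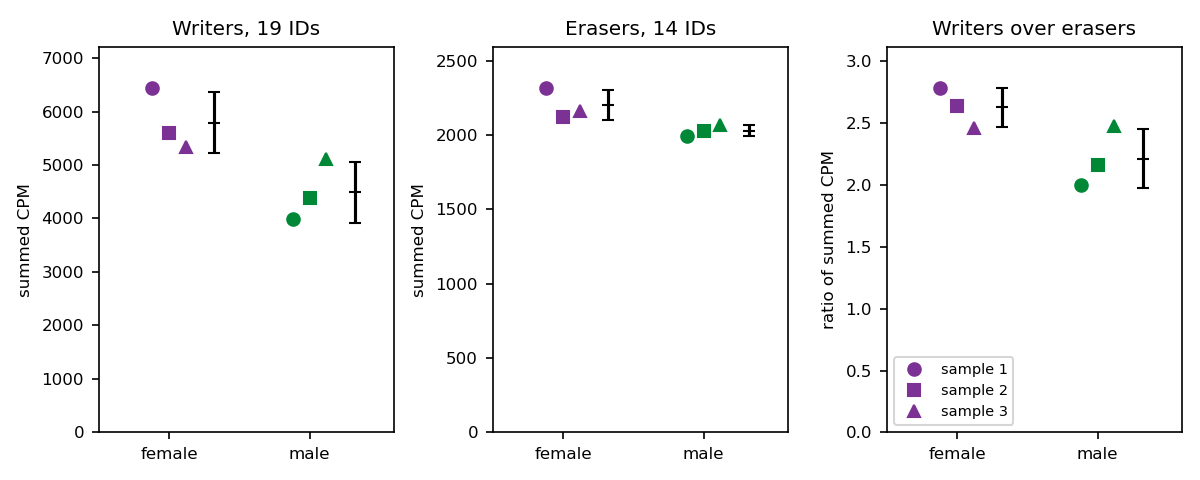
Summed CPM of the 19 writer IDs, of the 14 eraser IDs and the ratio of the sums, for each of the 3 female and 3 male samples (symbols give the sample number), with the mean and SD beside them. Writer sums run from 5331 to 6435 CPM in females and from 3989 to 5114 CPM in males, and the ratios overlap at 2.46 to 2.48.

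Single samples often held the extremes. Female sample 1 held the highest CPM in 17 of the 33 IDs and male sample 1 the lowest in 17. The same was not counted over all tested IDs. Over the whole table, the chi-square per degree of freedom, a distance between the counts of a pair of samples, was 34.4 and 44.9 between male sample 1 and the other males. It was 9.03 to 13.8 in the other pairs of the same sex. Among the 19 writer IDs, female sample 1 was highest in 11, male sample 1 was lowest in 11, and male sample 1 was highest in 0. Male sample 1 also had the largest total and the most IDs without a count, 6743 against 4120 to 6280 in the other samples.

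**Figure D3:**
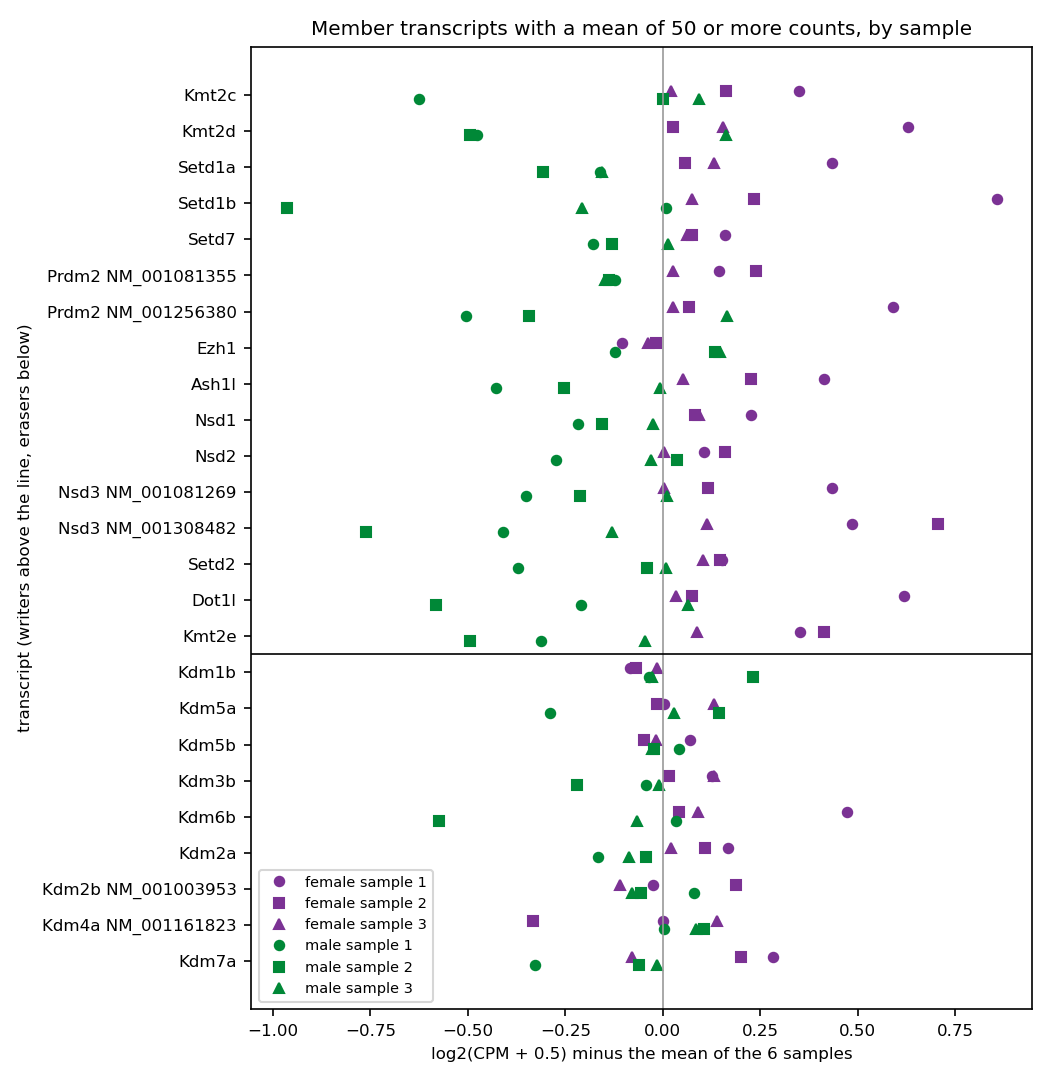
Each of the 25 member IDs with a mean of 50 or more counts, shown as log2(CPM + 0.5) of the 6 samples minus their mean (x axis, female purple and male green, symbols give the sample number). Writers are above the line and erasers below. For writers, female sample 1 is mostly at the right and male samples 1 and 2 at the left, while Kdm5b and Ezh1 show little spread.

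H3K4 writers all had a lower fitted value in males, as did 51.0% of all tested IDs. In 5 tested IDs of 5 genes the median log2 fold change was -0.42, and 3 were at an unadjusted p under 0.05, where 4.82% of all tested IDs were lower in males. That count was 0 without female sample 1 (2.29% of all tested IDs) and 2 to 4 without any 1 of the others (2.49% to 6.26%). Setd1b, the catalytic subunit of a complex that trimethylates H3K4 at promoters (NCBIM37 chromosome 5, 123592202 to 123617444, 17 exons), had 1291, 679 and 1191 counts in females (samples 1, 2 and 3 in this order throughout) and 1121, 385 and 997 in males. In CPM these were 209, 135 and 121 against 116, 58.7 and 99.6, so female sample 1 was far above and male sample 2 far below the rest, with no overlap. Its log2 fold change was -0.76 (SE 0.24, unadjusted p 0.00717, edgeR adjusted p 0.341), and -0.49 (unadjusted p 0.0599) without female sample 1.

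Setd1a, the paralog of Setd1b with the same role (chromosome 7, 134920184 to 134943636, 19 exons), had 1038, 648 and 1334 counts in females and 1075, 657 and 1115 in males. Its CPM was 168, 129 and 136 in females and 111, 100.3 and 111 in males, with every female sample above every male sample and the males close together. The log2 fold change was -0.42 (SE 0.13, unadjusted p 0.00751, edgeR adjusted p 0.341), and its unadjusted p was 0.0565 without female sample 1. Kmt2d, which monomethylates H3K4 at enhancers (chromosome 15, 98662100 to 98701614, 55 exons), had 5442, 2904 and 6205 counts in females and 3958, 2644 and 6368 in males. Male sample 3, at 636 CPM, stood above female samples 2 (579 CPM) and 3 (632 CPM), so the sexes overlapped. The fitted log2 fold change of Kmt2d was -0.53 (SE 0.19, unadjusted p 0.0170, edgeR adjusted p 0.363), and -0.33 (unadjusted p 0.122) without female sample 1.

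Smaller fitted differences were found for the other H3K4 writers. Kmt2c, the partner paralog of Kmt2d, had a log2 fold change of -0.33 (SE 0.17, unadjusted p 0.0772), with male sample 1 at 444 CPM and the other 5 samples between 686 and 873 CPM, and it was -0.14 without male sample 1. Setd7, a monomethyltransferase that also acts on non-histone proteins, was at 189 ± 7.02 CPM in females and 164 ± 11.7 CPM in males (log2 fold change -0.20, SE 0.12).

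Of the 4 tested IDs of H3K4 erasers, 2 had a lower and 2 a higher fitted value in males. Their median log2 fold change was 0.06 and 0 had an unadjusted p under 0.05 (4.82% of all tested IDs were lower and 6.68% higher in males). Kdm5b (chromosome 1, 136456748 to 136529454, 27 exons) had 4120, 3079 and 6153 counts in females and 6326, 4094 and 6230 in males, or 636 ± 27.3 and 633 ± 17.3 CPM. Its samples were fully mixed, and 2 SE on either side of the log2 fold change of -0.01 covered -0.23 to 0.22. Kdm5a, another H3K4 demethylase, was at 286 ± 16.1 CPM in females and 273 ± 41.1 CPM in males.

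Kdm1b, a flavin-dependent H3K4 demethylase (chromosome 13, 47138868 to 47179982, 21 exons), had 542, 445 and 903 counts in females and 878, 716 and 914 in males. Its CPM lay between 87.7 and 92.0 except in male sample 2, at 109, and the log2 fold change was 0.12 (SE 0.13, unadjusted p 0.384), or 0.03 without male sample 2. Kdm1a, the founding demethylase of the class, had 3, 8 and 8 counts in females and 3, 13 and 18 in males. At such counts its log2 fold change of 0.51 had an SE of 0.81, and it ran from 0.17 to 1.00 with samples left out in turn.

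Among H3K36 writers, all 6 tested IDs of 5 genes had a lower fitted value in males (51.0% of all tested IDs), with a median log2 fold change of -0.32. At an unadjusted p under 0.05 there were 4 (4.82% of all). They were 2 without female sample 1 (2.29% of all), male sample 1 (5.23%) or male sample 2 (2.91%) and under the replicate block (3.29%). Without any 1 of the other samples they were 3 to 5 (2.49% to 6.26%). Nsd3 (chromosome 8, 26712073 to 26830139, 24 exons), a dimethyltransferase of H3K36, had 2 tested IDs. NM_001308482 had 208, 197 and 254 counts in females and 173, 91 and 218 in males, or 33.6, 39.3 and 25.9 CPM against 17.9, 13.9 and 21.8 CPM. The sexes did not overlap, and this ID had the smallest unadjusted p of all members, with a log2 fold change of -0.87 (SE 0.21, unadjusted p 0.00132, edgeR adjusted p 0.338). With each sample left out in turn its unadjusted p was 0.00907 at most.

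The leading ID of Nsd3, NM_001081269, had 983, 639 and 1156 counts in females and 892, 665 and 1186 in males, with a log2 fold change of -0.37 (SE 0.15, unadjusted p 0.0261, edgeR adjusted p 0.385) that was -0.24 (unadjusted p 0.160) without female sample 1. Male sample 3 (118.5 CPM) was just above female sample 3 (117.8 CPM), so this ID overlapped. The IDs of Nsd3 share exons, and how reads were divided between them is not stated.

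Ash1l, a trithorax-group enzyme that dimethylates H3K36 (chromosome 3, 88769734 to 88883295, 27 exons), had 4104, 2923 and 5066 counts in females and 3583, 2741 and 4963 in males. Its CPM was 664, 583 and 516 in females and 370, 418 and 496 in males, without overlap and with male sample 1 lowest. The log2 fold change was -0.46 (SE 0.14, unadjusted p 0.00629, edgeR adjusted p 0.341), and it had an unadjusted p under 0.05 with each of the 6 samples left out in turn (0.0419 at most). With the trend with transcript length removed (described below), the log2 fold change of Ash1l was -0.18 (unadjusted p 0.127). Nsd1 (chromosome 13, 55311143 to 55419686, 23 exons), the gene of Sotos syndrome, had 8869, 6516 and 12837 counts in females and 10215, 7221 and 12065 in males. These were 1347 ± 75.6 and 1121 ± 76.7 CPM, again without overlap, and the log2 fold change was -0.27 (SE 0.12, unadjusted p 0.0394, edgeR adjusted p 0.411), with an unadjusted p over 0.05 when any 1 sample other than male sample 3 was left out.

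Setd2 (chromosome 9, 110435101 to 110521137, 21 exons) had 4189, 3389 and 6428 counts in females and 4565, 3883 and 6142 in males. Its female samples were almost equal (655 to 677 CPM), all males were lower (472 to 613 CPM), and the log2 fold change was -0.26 (SE 0.13, unadjusted p 0.0607), or -0.15 (unadjusted p 0.210) without male sample 1. Nsd2, the Wolf-Hirschhorn syndrome gene, had 211 ± 11.5 CPM in females and 187 ± 20.6 CPM in males with overlap.

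Over the 4 IDs of H3K36 erasers, with Kdm4a counted here and under H3K9, the median log2 fold change was 0.04, and 0 had an unadjusted p under 0.05. Kdm2a (chromosome 19, 4316170 to 4398266, 21 exons), which demethylates H3K36 and binds CpG islands, had 2556, 1990 and 3665 counts in females and 3172, 2342 and 3467 in males. Every female sample was above every male sample (395 ± 20.01 against 344 ± 15.02 CPM), with a log2 fold change of -0.20 (SE 0.11, unadjusted p 0.0997). Kdm2b, its paralog that brings Polycomb proteins to CpG islands, had 18.3 ± 2.03 CPM in females and 17.7 ± 1.10 CPM in males for its leading ID, NM_001003953.

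The second ID of Kdm2b, NM_013910, had 1, 4 and 21 counts in females and 24, 20 and 12 in males. Female samples 1 and 2 were low and female sample 3 lay within the male range, and the log2 fold change of 0.99 had an SE of 0.72 (unadjusted p 0.191). It was 2.25 (unadjusted p 0.0280) without female sample 3 and 0.52 without female sample 1. Kdm4a, which demethylates both H3K9 and H3K36 (chromosome 4, 117809562 to 117852648, 22 exons), had 482, 310 and 843 counts in females and 756, 550 and 829 in males. Its female samples, 61.8 to 85.9 CPM, enclosed the males (78.1 to 83.9 CPM), and the log2 fold change was 0.11 (SE 0.14), with -0.01 without female sample 2.

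Among the H3K9 writers only Prdm2, a tumour suppressor of the PR-domain family, was tested. The leading ID NM_001081355 was at 49.5 ± 3.64 CPM in females and 40.8 ± 0.384 CPM in males with no overlap. NM_001256380 had 349, 196 and 373 counts in females and 253, 192 and 419 in males, and overlapped because male sample 3 (41.8 CPM) was above female samples 2 and 3 (39.1 and 38.0 CPM). The log2 fold changes were -0.28 (SE 0.14, unadjusted p 0.0703) and -0.45 (SE 0.21, unadjusted p 0.0510), the second being -0.25 without female sample 1.

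In the 6 tested IDs of H3K9 erasers the median log2 fold change was -0.20, with 1 lower in males at an unadjusted p under 0.05 (4.82% of all tested IDs). Jmjd1c, a relative of the H3K9 demethylase Kdm3a, had 51, 31 and 56 counts in females and 45, 24 and 33 in males for NM_001242396, or 8.25, 6.18 and 5.71 against 4.65, 3.66 and 3.30 CPM. The sexes did not overlap, and the log2 fold change was -0.79 (SE 0.32, unadjusted p 0.0289, edgeR adjusted p 0.390), with an unadjusted p of 0.126 without female sample 1. The other ID of Jmjd1c, NM_207221, overlapped and had a log2 fold change of -0.22 (SE 0.42), which was 0.04 without female sample 1 and 0.10 without male sample 1.

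Kdm3b, another H3K9 demethylase, was at 284 ± 12.8 CPM in females and 250.4 ± 19.3 CPM in males with no overlap (log2 fold change -0.18, SE 0.12, unadjusted p 0.146), and its log2 fold change was -0.11 (unadjusted p 0.413) without male sample 2. Kdm3a had 6, 5 and 11 counts in females and 3, 6 and 28 in males for NM_001362201. Its log2 fold change of 0.39 (SE 0.78) turned to -0.78 without male sample 3, so that sample set its direction.

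For H3K27, 1 writer and 2 erasers were tested, Kdm7a being counted under H3K9 as well. Ezh1, the PRC2 subunit of non-dividing cells (chromosome 11, 101052429 to 101087777, 21 exons), had 305, 263 and 507 counts in females and 471, 382 and 589 in males. The females (49.3 to 52.4 CPM) lay within the range of the males (48.6 to 58.8 CPM), and the log2 fold change was 0.11 (SE 0.14, unadjusted p 0.443), or 0.07 to 0.19 with samples left out in turn.

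Kdm6b, a demethylase of trimethylated H3K27 needed in neural differentiation (chromosome 11, 69212010 to 69227177, 23 exons), had 1674, 1007 and 2037 counts in females and 1931, 857 and 1864 in males. Its CPM was 271, 200.7 and 208 in females and 199, 131 and 186 in males, and female sample 2 was barely above male sample 1. The log2 fold change was -0.39 (SE 0.17, unadjusted p 0.0360, edgeR adjusted p 0.3996), and it was -0.25 (unadjusted p 0.196) without female sample 1 and -0.23 (unadjusted p 0.183) without male sample 2. Kdm7a, which acts on H3K9 and H3K27 (chromosome 6, 39086622 to 39156788, 20 exons), had 1206, 924 and 1487 counts in females and 1234, 1005 and 1586 in males. Female sample 3 (152 CPM) was below male samples 2 (153 CPM) and 3 (158 CPM), and the log2 fold change was -0.27 (SE 0.14, unadjusted p 0.0699).

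H3K79 has the single writer Dot1l (chromosome 10, 80217951 to 80258206, 28 exons), with 1431, 795 and 1511 counts in females and 1259, 657 and 1574 in males. In CPM female sample 1, at 231, stood apart from female samples 2 and 3 (158 and 154), and male sample 3 (157) fell between those. The log2 fold change was -0.49 (SE 0.19, unadjusted p 0.0216, edgeR adjusted p 0.379), and it was -0.27 (unadjusted p 0.162) without female sample 1.

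The H4K20 writers Kmt5b and Kmt5c, which set the di- and trimethylated states, had few counts. Kmt5c had 22, 19 and 29 counts in females and 8, 36 and 28 in males, with male sample 1 lowest and male sample 2 highest. Its log2 fold change was -0.20 (SE 0.55), and that of Kmt5b was -0.13 (SE 0.70). Without male sample 1 these were 0.26 and 0.44, so that sample set the direction of both, and without female sample 1 that of Kmt5b was 0.07.

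Kmt2e and Setd5 carry SET domains for which no agreed target residue is listed. Kmt2e (chromosome 5, 22940259 to 23010053, 27 exons), a gene of a human neurodevelopmental syndrome, had 3297, 2793 and 4355 counts in females and 3253, 1942 and 4048 in males. In CPM these were 533, 557 and 444 against 336, 296 and 404, with every female sample above every male sample. The log2 fold change was -0.56 (SE 0.14, unadjusted p 0.00154, edgeR adjusted p 0.338). Its unadjusted p stayed under 0.05 with each sample left out in turn (0.0114 at most). Setd5 reached 12 counts at most in a sample, and its log2 fold change was 0.37 (SE 0.85), or -0.07 without female sample 1.

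**Figure D4:**
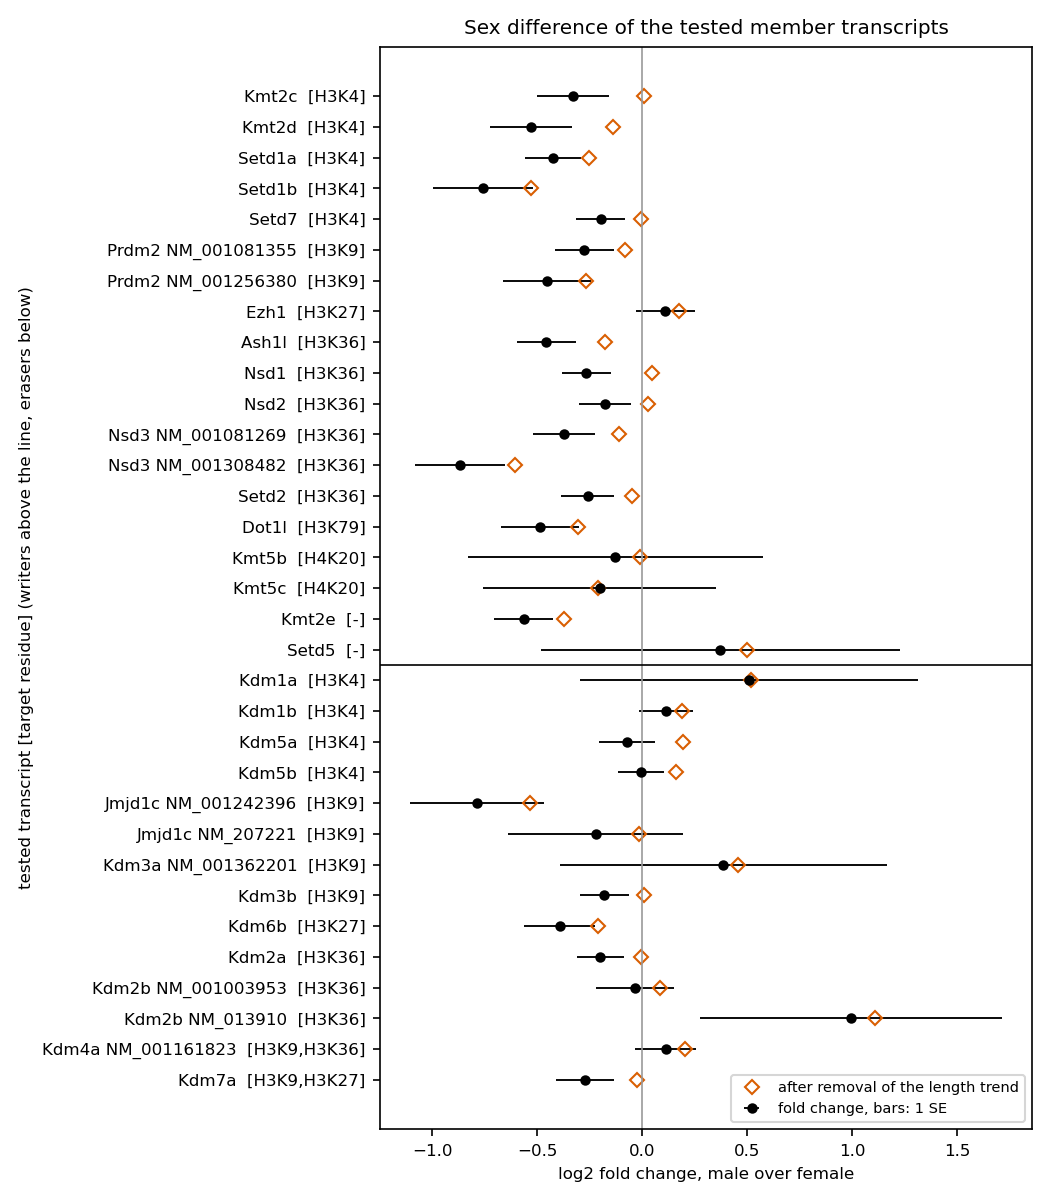
Log2 fold change (male over female) of the 33 tested member IDs with bars of 1 SE (black), and the same after removal of the trend with transcript length (open diamonds), writers above the line and erasers below. Among writers 17 of 19 black points lie below 0, and most diamonds lie to the right of their black points.

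Transcript length moved with these differences. The members had a median annotated length of 7304 nt, against 2869 nt over all tested IDs, with 7410 nt for writers and 6480 nt for erasers. Across the 12744 tested IDs with a length, fold change and length had a Spearman's rho of -0.25, and in the 8167 with a mean of 50 or more counts it was -0.46. The transcripts of a sample share its library and its RNA, so these are descriptions. Over the 33 members rho was -0.63. In the 25 of them with a mean of 50 or more counts it was -0.49, with -0.16 in the 16 writer IDs and -0.72 in the 9 eraser IDs among those.

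When a smooth trend of each sample with length was removed, the median log2 fold change of the members was -0.01, that of the writers -0.11 and that of the erasers 0.12. Of the 11 IDs at an unadjusted p under 0.05, 3 were left, where 3.53% of all tested IDs were. These were Nsd3 NM_001308482 (log2 fold change -0.61, unadjusted p 0.0106), Kmt2e (-0.37, unadjusted p 0.0127) and Setd1b (-0.53, unadjusted p 0.0426), each with a lower value in males. The fitted value of 7 IDs changed sign, among them Nsd1 (0.05), Kmt2c (0.01), Kdm5a (0.19) and Kdm5b (0.16). In these 6 samples, sex and the trend with length cannot be told apart.

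**Figure D5:**
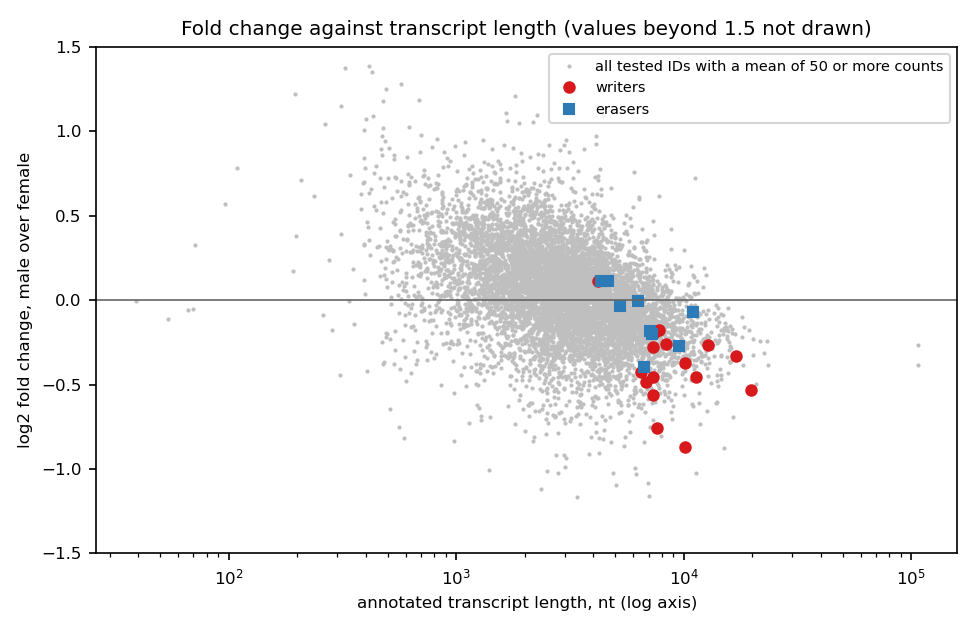
Log2 fold change (male over female) against annotated transcript length (log axis) for tested IDs with a mean of 50 or more counts (grey), with writers as red circles and erasers as blue squares. The grey points run downward to the right, with a rho of -0.46, and the members lie toward the long end.

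Partner proteins of the enzymes and 19 other autosomal methyltransferase or demethylase genes were looked at by list. Of these 74 genes, 3 (Atrx, Ezhip and Msl3) are X-linked. Of 64 listed genes, 50 had a tested ID, 54 IDs in all, with 0 at an adjusted p under 0.05 and a median log2 fold change of 0.00. At an unadjusted p under 0.05, 6 of the 54 were lower in males (4.82% of all tested IDs) and 3 higher (6.68% of all), the latter near the background. The other methyltransferase or demethylase genes, which are not partners, held 17 of the 54 IDs, 1 of the lower and 2 of the higher. The balance over the 54 IDs was not stable. With the length trend removed 3 were lower (3.53% of all) and 7 higher (5.76%). Without female sample 3 they were 5 and 7 of 53 (5.85% and 10.2% of all), and without male sample 3 they were 3 and 7 of 53 (6.26% and 8.19%). Over all samples left out in turn, 3 to 6 were lower and 0 to 7 higher. The H3K4 writer partners (10 IDs) included 3 of these. Ncoa6, a coactivator in the Kmt2c and Kmt2d complexes, was at 124 ± 33.1 CPM in females and 73.4 ± 10.7 CPM in males, with a log2 fold change of -0.75 (SE 0.19, unadjusted p 0.00161, edgeR adjusted p 0.338). Psip1, a reader of H3K36 methylation that also binds Kmt2a, had -1.16 (SE 0.39, unadjusted p 0.0114) in its minor ID NM_001347143, which was -0.75 (unadjusted p 0.0947) without female sample 2. The leading ID of Psip1, NM_133948, had -0.16 (SE 0.12, unadjusted p 0.224).

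Wdr5, the shared scaffold of H3K4 complexes, was named after its value was seen, and its log2 fold change was 0.32 (SE 0.13, unadjusted p 0.0305), or 0.25 to 0.44 with samples left out in turn (unadjusted p 0.107 at most). In the list of H3K9 partners (8 IDs), Atf7ip, which stabilises Setdb1, had -0.46 (SE 0.14, unadjusted p 0.00489), and the X-linked chromatin remodeller Atrx had -0.33 (SE 0.14, unadjusted p 0.0414), or -0.20 (unadjusted p 0.131) without male sample 1 and -0.07 with the length trend removed. Supt6, an elongation factor among the H3K36 partners (4 IDs), had -0.25 (SE 0.11, unadjusted p 0.0406), or -0.08 with the length trend removed, and its list neighbour Iws1 had -0.08 (SE 0.14), or 0.04 without male sample 1. Ncoa6 and Atf7ip stayed at an unadjusted p under 0.05 with each sample left out in turn (0.0124 and 0.0274 at most).

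PRC2 subunits (4 IDs), H3K79 partners (5 IDs) and the Kdm1a complex (6 IDs) had 0 IDs at an unadjusted p under 0.05 with all samples, each had 1 higher in males without female sample 3, and H3K79 partners also had 1 lower without male sample 2, 1 higher without male sample 3 and 2 higher with the length trend removed. In these lists the PRC2 histone chaperone Rbbp4 had a log2 fold change of 0.19 (SE 0.13), which was 0.05 without male sample 1, and the PRC2 accessory protein Phf19 -0.24 (SE 0.19). The elongation factors Mllt1 and Aff4 had 0.27 (SE 0.13) and -0.20 (SE 0.11), the first being 0.17 without female sample 2 and the second 0.06 with the length trend removed. The corepressor Rcor2 (NM_001320554) had 13, 10 and 91 counts in females and 85, 54 and 64 in males, with female sample 3 far above the other two. Its log2 fold change was 0.73 (SE 0.48), and 1.93 without female sample 3. That of Rcor1, its paralog, was -0.15 (SE 0.13), and -0.07 without female sample 1. Other autosomal methyltransferase and demethylase genes (17 IDs) had 2 higher and 1 lower in males at an unadjusted p under 0.05, too few to read against the same shares. The smallest p-values were those of Smyd5 (log2 fold change 0.40, SE 0.14) and the ribosomal oxygenase Riox1 (0.68, SE 0.26), the latter 1.10 without female sample 3. Without female sample 2 their unadjusted p was 0.0518 and 0.0863.

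Of the enzymes looked at, members and sex-linked genes alike, Kdm5d was the one called by edgeR with all samples and the filter on low counts. Kdm5d, the H3K4 demethylase of the Y chromosome, was read 0, 0 and 1 times in females and 595, 613 and 783 times in males. Kdm5c, its X-linked counterpart, which escapes X inactivation, had 3436, 2342 and 5489 counts in females and 3666, 2521 and 4129 in males. That was 527 ± 52.4 CPM in females and 392 ± 18.0 CPM in males, and the log2 fold change was -0.43 (SE 0.12, unadjusted p 0.00332, edgeR adjusted p 0.338), and DESeq2 called Kdm5c as well. Phf8, an X-linked H3K9 demethylase, had -0.30 (SE 0.14, unadjusted p 0.0509). Suv39h1, an enzyme for trimethylation of H3K9, had at most 10 counts per sample in either of its 2 IDs. Kdm6a, the X-linked H3K27 demethylase, had 2 counts at most in any sample and did not enter the test.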

How the data were processed

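Counts per RefSeq transcript ID, 1 table per sample and not normalised, were deposited by the authors. Per the study's methods and the submitters' processing notes, stranded total RNA libraries were read as pairs, trimmed (Trimmomatic 0.32), aligned to mm9 (TopHat2 2.1.1), assembled (Cufflinks 2.2.1) and counted over merged transcripts (featureCounts 1.5.1). The treatment of strand and of reads shared by several transcripts is not given in the sources used here.

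Symbols came from a RefSeq gene table (GRCm38.p6; 23359 of 23485 IDs), and positions and lengths from GENCODE vM1 on NCBIM37 (21508 IDs). Male was compared with female by edgeR's quasi-likelihood F test (TMM, IDs with at least 10 counts in 1 sample, Benjamini-Hochberg over all tested IDs). CPM uses TMM-scaled totals, and the SE is the size of the log2 fold change divided by the root of F. Totals of 4908565 to 10294443 counts set the precision of low IDs. Alternatives were DESeq2, RLE factors, other count filters, IDs summed by gene, a replicate block, 1 RUVr factor (from deviance residuals), a lowess trend with length as a per-sample offset (span 0.5) and leaving out each sample. Levels per kilobase and promoters had no test. The labels name no batch. The fits were tested on simulated data.

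Members and lists were chosen with earlier results of these data known. Per-sample counts are given for each ID at a p under 0.05, the smallest p in each role and residue class, the 3 largest positive fold changes and the genes highest and lowest per kilobase. Partner and other enzyme genes named are the 2 of smallest p in a list and all sex-linked ones, and Wdr5, chosen after its value was seen. Kmt2c, Setd7, Kdm5a, Nsd2, Kdm3b, the other IDs of a gene and low-count genes are described beside them. Software was R 4.3.3, edgeR 4.0.16, DESeq2 1.42.0, Python 3.11.15 and pandas 2.3.3.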

Additional observations from a re-analysis of the deposited data

How the results depend on the processing

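No member passed an adjusted p of 0.05 with edgeR, except 4 without the filter on low counts, and 2 did so with DESeq2. Leaving out each sample in turn gave 0 called members each time. At an unadjusted p under 0.05, 3 to 13 members had a lower value in males (2.29% to 6.26% of all tested IDs). With a higher value there were 0 to 1 (3.12% to 10.2% of all), the 1 being Kdm2b NM_013910 without female sample 3. Female samples were all above male samples in 13 to 19 IDs, an alternative chosen after seeing the data. The 18 without female sample 3 and the 19 without male sample 3 stood beside 17.4% and 16.1% of all tested IDs, and male samples were all above in up to 3 members (erasers, without female sample 3, where 19.2% of all IDs were). The median log2 fold change ranged from -0.3128 to -0.1586 for members, from -0.4532 to -0.2475 for writers and from -0.1427 to 0.0065 for erasers, the last without male sample 1. The eraser median was -0.1572 without the filter on low counts and -0.1896 with 10 counts required in every sample, which tests fewer IDs.

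With the length trend removed, 3 members had a lower value in males at an unadjusted p under 0.05 (3.53% of all tested IDs). The medians were then -0.0091 for members, -0.1121 for writers and 0.1236 for erasers. The fit with 1 RUVr factor gave 15 such members (9.19% of all tested IDs). With a replicate block there were 8 such members (3.29% of all tested IDs were lower in males at that p), 0 called and a median of -0.27. Samples of the same number did not deviate together (correlations of -0.34, -0.05 and -0.26), and no sample correlated best with its own number, so the numbers do not pair the samples. Of the partner genes 1 was called with DESeq2 and 1 without female sample 3 (0 to 1 over the samples left out), Ncoa6 in both. Without scaling by length Kdm5b ranked 3 in CPM and Nsd1 was highest. The level per kilobase of Kdm5b was 282 to 293 with samples left out. The causes of these changes were not tested. Low counts limit Setd5, Kdm1a, Kdm3a, Kmt5b, Kmt5c and the second ID of Kdm2b, whose SE was 0.55 to 0.85.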
